A study of Homo sapiens with 32 samples.

Results

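Antisense long noncoding RNA genes are transcribed from the strand opposite another gene, and by convention carry that gene's symbol followed by AS. The genes described here are those whose symbol, read from the Ensembl ID of the count tables, ends in -AS or in -AS and a number, with a mean of at least 20 reads over the 32 libraries. There were 338 of them among 60662 gene IDs, out of 1847 IDs with such a symbol at any level. The rule used the mean level but no difference between groups. Just inside the limit lay GALNT9-AS1 with a mean of 20.1 reads and just below it IDH1-AS1 with 19.9 reads.

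The cells were HEK293T, an established line from human embryonic kidney, and poly(A) RNA was sequenced with a kit that keeps the strand. STM2457 inhibits METTL3, the enzyme that places N6-methyladenosine (m6A) on RNA. YTHDF2 is a reader of m6A that speeds the decay of the RNAs it binds, and emetine blocks the elongation of translation. In a knockdown experiment, cells received YTHDF2 siRNA at 20 nM with STM2457 for 6 h, YTHDF2 siRNA with DMSO for 6 h, STM2457 for 6 h, or DMSO for 6 h, with 3 libraries a group. In an emetine experiment, STM2457 or DMSO for 6 h was combined with emetine at 1.8 µM or with DMSO in the last 2 h, again with 3 libraries a group. In another experiment, cells received STM2457 or DMSO for 9 h, with 4 libraries a group. STM2457 was used at 20 µM, in 0.2% DMSO, which the control cells received alone. The libraries without YTHDF2 siRNA are labelled WT, and the labels do not say whether they received a control siRNA, so transfection and loss of YTHDF2 cannot be told apart.

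Gene counts per library in the knockdown experiment were 37694945 to 42303951. Those of the emetine experiment were 21781514 to 28053353 and, after a 9 h treatment, 22510323 to 34677704. Levels are TMM-scaled CPM (counts scaled to a common library size), and changes are log2 ratios with their standard error (SE). A gene is called higher or lower where the adjusted p of the edgeR quasi-likelihood test, over all genes tested, was below 0.05. The labels do not say that replicates were separate cultures, so p-values measure the spread between these libraries, which may be technical. YTHDF2 was at 43.3 ± 1.1 CPM with its siRNA and at 178 ± 3.9 CPM without it (SD, n = 3 each, in DMSO), while in STM2457 without siRNA it was at 618 ± 37 CPM. All 7 HEK293T marker genes looked at had a median of at least 1 CPM, against 1 of 6 blood, 2 of 5 fibroblast and 0 of 4 liver markers. In the library of STM2457 6 h replicate 3, ribosomal protein genes took 7.97% of the reads, against 6.74% and 6.83% in the other libraries of that group.

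Long noncoding RNAs of this kind are mostly spliced and polyadenylated like mRNAs, but many stay in the nucleus and are turned over there by the RNA exosome, while others reach the cytoplasm and can be degraded during translation by nonsense-mediated decay. m6A is found on many of them, commonly at sites with the letters GGACT. Of the 338 genes, 336 were in GENCODE 29 on GRCh38. Exons overlapped those of a protein coding gene on the other strand in 265, another 44 lay within or across such a gene without exon overlap, and 20 started within 1000 bases of one, head to head. GENCODE gives 254 the type antisense, 37 processed transcript and 29 lincRNA, and 3 (KRT10-AS1, KCNJ5-AS1 and CCDC28A-AS1) are listed there as protein coding. How the counting treated strand is not given in the sources used here. For genes with exon overlap reads of the partner could not be told apart from their own with certainty.

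To show the sequence context of the genes on which the results at 6 h turn, 29 bases around the first GGACT with 12 bases on either side are given for 3 genes that fell and 2 that rose, from the longest GENCODE 29 transcript and 5′ to 3′, with the motif in capitals.
ATP6V0E2-AS1: tcctcactcccaGGACTagcgagcggcgg
SOX21-AS1: tctcccgctgctGGACTgacgggtggggc
HERPUD2-AS1: tcgggctgcccgGGACTctagccgccagg
HOXA10-AS: ccagcccagtcaGGACTtgacacttagga
PSMD6-AS2: ctactgccctgtGGACTtcccattccctc
On the transcript strand, 80.1% of the longest transcripts of 336 antisense genes held GGACT, against 89.1% of those of 16531 genes tested, and the transcripts were shorter (median 2096 bases in antisense genes and 3287 bases in all genes tested). Per kb there were 1.03 such letters in the antisense genes and 0.974 in all genes tested. GGACT occurred 4 times in ATP6V0E2-AS1, 6 times in HERPUD2-AS1 and 2 times in SOX21-AS1, 1 time in HOXA10-AS and 3 times in PSMD6-AS2, and in CIRBP-AS1, another gene that fell, it was not found in 994 bases. A match is a run of letters and not a measured m6A site.

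A pair of promoters is shown because each gives rise to an antisense gene that fell and, from the other strand, to its partner. They are RefSeq windows on GRCh38.p14 of 300 bases, on the strand of the antisense gene and 5′ to 3′, and the capitals mark the first 50 transcribed bases. SOX21-AS1 is at chr13:94712466-94712765 on the plus strand, where the start of SOX21 lies at base 80. HERPUD2-AS1 is at chr7:35694956-35695255 on the plus strand, where the start of HERPUD2 lies at base 180.
SOX21-AS1: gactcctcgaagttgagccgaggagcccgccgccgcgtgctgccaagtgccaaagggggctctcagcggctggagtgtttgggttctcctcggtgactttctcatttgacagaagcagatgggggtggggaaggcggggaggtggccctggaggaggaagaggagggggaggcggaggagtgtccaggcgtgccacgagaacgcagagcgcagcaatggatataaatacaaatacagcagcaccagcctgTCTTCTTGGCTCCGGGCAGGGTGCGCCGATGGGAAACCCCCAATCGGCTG
HERPUD2-AS1: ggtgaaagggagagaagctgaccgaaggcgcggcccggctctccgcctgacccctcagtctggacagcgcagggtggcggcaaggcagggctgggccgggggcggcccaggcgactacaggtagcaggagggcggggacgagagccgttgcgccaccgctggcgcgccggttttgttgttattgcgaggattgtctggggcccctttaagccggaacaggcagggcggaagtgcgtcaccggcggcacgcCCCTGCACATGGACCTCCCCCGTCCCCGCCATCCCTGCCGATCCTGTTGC
Such a window was found for 259 of the 338 genes. In 55 of the 226 pairs with windows on opposite strands, the windows of the antisense gene and its partner overlapped. GC made up a median of 64.7% of the bases in the windows of antisense genes and 58.3% in those of all 27305 genes. After 6 h of STM2457 in the knockdown experiment, the median log2 change of the antisense gene was -0.15 in the 55 pairs whose windows overlapped and -0.15 in the other 171. Of these, 16 and 66 were lower and 5 and 19 higher. The medians were -0.31 and -0.28 at 6 h in the emetine experiment, 0.11 and 0.01 at 9 h, and 0.16 and 0.09 with emetine in DMSO. The difference between these sets of pairs was not tested.

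The question of the first comparison is what inhibition of the m6A writer does within 6 h. Most antisense genes that responded fell. Of 338 genes tested in the knockdown experiment, 129 were lower and 34 higher with STM2457, where 22.1% of all genes tested were lower and 22.9% higher (45.0% called). The median log2 change was -0.20, against -0.02 over all 16662 genes. In the emetine experiment, without emetine, 123 were lower and 22 higher, where the shares of all genes were 21.9% lower and 26.0% higher (47.8% called), and the median log2 change was -0.28 against 0.00. A fall of at least 1 on the log2 scale was called for 37 genes in the knockdown experiment and 50 in the emetine experiment, and a rise of that size for 0 and 1. The falls were 10.9% and 14.8% of the antisense genes, where 3.02% and 2.88% of all genes fell by that much and 1.75% and 1.84% rose by it.

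Other long noncoding RNAs also fell more often than they rose. Among 765 other lncRNA genes with a mean of at least 20 reads, 237 were lower and 108 higher at 6 h in the knockdown experiment, with a median of -0.16, while 12530 protein coding genes had a median of 0.00, with 2906 lower and 3439 higher. In the emetine experiment the medians were -0.28 for antisense genes, -0.12 for other lncRNAs and 0.02 for protein coding genes. These are counts and medians, and the difference between the classes was not tested. Together the antisense genes held 0.137 ± 0.006% of gene reads with STM2457 and 0.173 ± 0.005% with DMSO (SD, n = 3 each) in the knockdown experiment. In the emetine experiment they held 0.142 ± 0.002% with STM2457 and 0.186 ± 0.003% with DMSO (SD, n = 3 each).

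**Figure D1:**
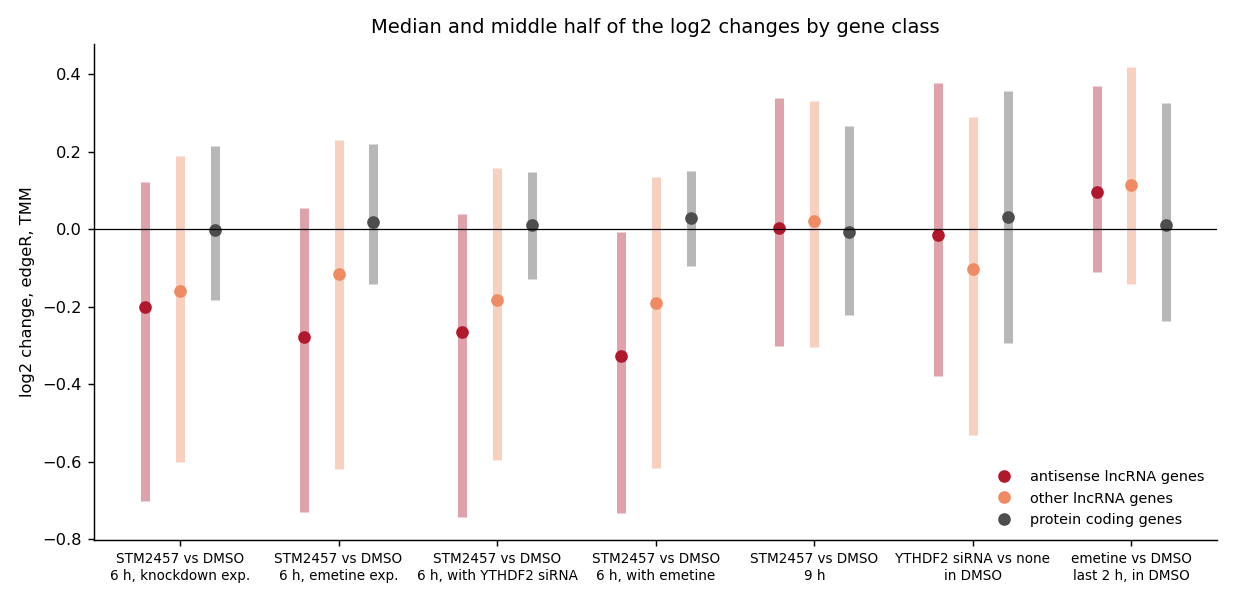
Log2 changes by gene class in 7 comparisons: points are medians and bars run from the lower to the upper quartile, for antisense lncRNA genes (338), other lncRNA genes (765) and protein coding genes (12530) with a mean of at least 20 reads. In the 4 comparisons of STM2457 with DMSO at 6 h the medians of antisense genes lie between -0.33 and -0.20, and at 9 h the median is 0.00.

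Both experiments at 6 h share no library, and 118 antisense genes were called in both, all 118 in the same direction. That is 34.9% of them, where 34.8% of all genes tested in both were called in both and 99.5% of those had the same direction. Of the 118, 100 were lower, which is 77.5% of the 129 lower genes of the knockdown experiment and 81.3% of the 123 of the emetine experiment. The other 18 were higher, 52.9% of 34 and 81.8% of 22. Lower in both were 29.6% of the antisense genes and 2341 of all 15583 genes tested in both, and higher in both 5.33% of the antisense genes and 3050 (19.6%) of all genes. Including the comparisons within YTHDF2 siRNA and within emetine, 84 antisense genes (24.9%) were lower in all 4 comparisons at 6 h and 5 (1.48%) were higher, where 7.29% of all genes were lower and 10.6% higher. The counts rest on TMM scaling. Scaled to ribosomal protein genes or to ERCC spike-ins, the median of all genes moved to -0.28 or -0.39 in the knockdown experiment. In the emetine experiment it moved to -0.17 or -0.13. In the knockdown experiment the antisense calls became 177 lower and 6 higher, or 156 lower and 1 higher. Of all 16662 genes, 7378 were then lower and 1244 higher, or 5023 lower and 398 higher. In the emetine experiment the antisense calls became 166 lower and 10 higher, or 152 lower and 9 higher. Of all 15817 genes, 6689 were then lower and 2200 higher, or 4679 lower and 2092 higher.

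**Figure D2:**
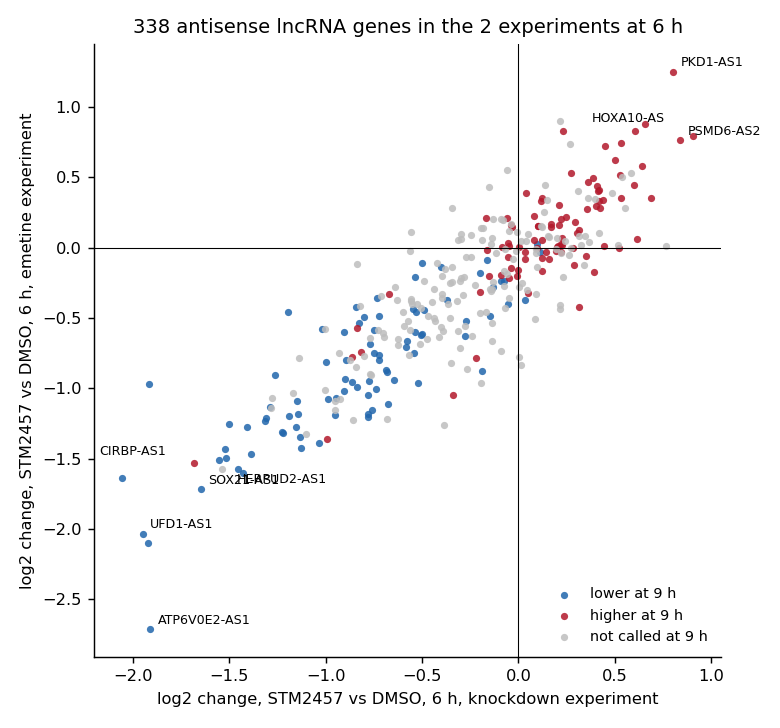
Log2 change with STM2457 at 6 h in the knockdown experiment (x axis) and in the emetine experiment (y axis) for 338 antisense lncRNA genes, coloured by their call at 9 h. The genes called in both experiments lie in the lower left (100) and the upper right (18), and CIRBP-AS1 is a gene of the lower left that was higher at 9 h.

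ATP6V0E2-AS1, antisense to a gene for a subunit of the vacuolar proton pump, was among the genes with the largest falls. It lies on chromosome 7, minus strand, at 149867697 to 149880610. In the knockdown experiment it was at 2.03, 1.88 and 1.69 CPM with STM2457, against 6.87, 7.19 and 7.02 CPM with DMSO. The groups did not overlap, and the log2 change was -1.91 ± 0.11 (SE; adjusted p = 7.13e-11). A lack of overlap was a condition for naming the largest changes, here and below, so it is no added evidence for them. In the emetine experiment it was at 1.67, 1.78 and 1.91 CPM with STM2457, against 12.4, 11.7 and 11.1 CPM with DMSO, a log2 change of -2.71 ± 0.12 (adjusted p = 9.12e-20). Its partner ATP6V0E2 was lower by much less, with log2 changes of -0.34 and -0.15 in those experiments. Exons of ATP6V0E2 on the other strand covered 26.3% of the exon bases of the antisense gene.

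SOX21-AS1 lies head to head with SOX21, which encodes a transcription factor of neural progenitors. It was at 2.46, 2.19 and 1.44 CPM with STM2457, against 6.17, 6.42 and 6.49 CPM with DMSO in the knockdown experiment, and every STM2457 library lay below every DMSO library. The log2 change was -1.65 ± 0.14 in that experiment (adjusted p = 1.43e-08) and -1.72 ± 0.18 in the emetine experiment (adjusted p = 1.23e-09). SOX21 itself was called higher, with log2 changes of 0.36 and 0.33. With ERCC spike-ins as the scale, the log2 change of SOX21 was -0.01 in the knockdown experiment and 0.19 in the emetine experiment (adjusted p = 0.987 and 0.307). In the emetine experiment it also lost its call in DESeq2 (adjusted p = 0.0839) and without any of 5 of the 6 libraries compared, DMSO replicate 2 being the exception (0.25 to 0.32, adjusted p = 0.0606 to 0.137).

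HERPUD2-AS1, a transcript of 1 exon that overlaps exons of a gene for a membrane protein with a ubiquitin-like domain, was at 2.18, 3.48 and 1.897 CPM with STM2457, against 7.17, 7.24 and 7.54 CPM with DMSO. Its log2 change was -1.54 ± 0.14 (adjusted p = 7.47e-08), and in the emetine experiment -1.57 ± 0.12 (adjusted p = 3.02e-13). HERPUD2 had a log2 change of 0.01 in the knockdown experiment (adjusted p = 0.862), and of -0.25 when scaled to ribosomal protein genes (adjusted p = 0.0444). UFD1-AS1, antisense to a gene of ubiquitin-dependent protein extraction, fell by 1.95 on the log2 scale in the knockdown experiment and by 2.03 in the emetine experiment. PRKAR2A-AS1 fell by 1.52 in the knockdown experiment and by 1.43 in the emetine experiment. WEE2-AS1 fell by 1.92 and 2.10 in these experiments, and PPM1F-AS1 by 2.06 and 1.64.

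CIRBP-AS1 lies opposite the gene of the cold-inducible RNA-binding protein, CIRBP, with 0.402% of its exon bases overlapped. It was at 2.31, 2.704 and 2.20 CPM with STM2457 for 6 h, against 7.84, 8.16 and 7.26 CPM with DMSO, and the groups did not overlap. The log2 change was -1.69 ± 0.10 in the knockdown experiment (adjusted p = 1.39e-10) and -1.53 ± 0.13 in the emetine experiment (adjusted p = 4.67e-12). For CIRBP the log2 change was -0.13 ± 0.05 in the knockdown experiment (adjusted p = 0.0473), which lost its call without the low-count filter (adjusted p = 0.102) and when any of 5 libraries was left out, DMSO replicates 1 and 3, STM2457 replicates 1 and 3 and siYTHDF2 DMSO replicate 3 (-0.14 to -0.10, adjusted p = 0.0530 to 0.0899).

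Few antisense genes rose at 6 h. HOXA10-AS, which overlaps exons of the homeobox genes HOXA9 and HOXA10, was at 8.21, 8.50 and 7.49 CPM with STM2457, against 4.08, 4.77 and 4.05 CPM with DMSO. Its log2 change was 0.91 ± 0.11 in the knockdown experiment and 0.79 ± 0.11 in the emetine experiment (adjusted p = 1.25e-06 and 1.62e-07). HOXA10 on the other strand rose by 0.68 and 0.71, the first without a call under ERCC scaling (0.32, adjusted p = 0.177). PSMD6-AS2, antisense to a gene of the proteasome's regulatory particle, was at 1.49, 1.73 and 1.28 CPM with STM2457, against 0.722, 0.964 and 0.814 CPM with DMSO. Its log2 change of 0.84 ± 0.17 in the knockdown experiment (adjusted p = 0.000594) lost its call under ERCC scaling (0.49, adjusted p = 0.154), as did that of PKD1-AS1, which was 0.80 ± 0.15 (0.45 under ERCC scaling, adjusted p = 0.177). In the emetine experiment, the log2 change of PSMD6-AS2 was 0.76 ± 0.26, and it lost its call without DMSO replicate 3 (0.65, adjusted p = 0.0705) or without STM2457 replicate 2 (0.65, adjusted p = 0.0763), and under scaling to ribosomal protein genes (0.59, adjusted p = 0.0515) or to ERCC (0.63, adjusted p = 0.0859). DMTF1-AS1 and CA3-AS1 rose in the knockdown experiment, by 0.77 and 0.69, and lost their calls under ERCC scaling (0.37 and 0.33, adjusted p = 0.303 and 0.253). HOXC-AS2 and COA6-AS1 rose in the emetine experiment, by 0.83 and 0.72, the second without a call when STM2457 replicate 3 was left out (0.55, adjusted p = 0.0622).

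The most abundant antisense genes moved in different directions. FGD5-AS1, the highest, averaged 111 ± 4.45 CPM with STM2457 and 90.3 ± 0.908 CPM with DMSO in the knockdown experiment (SD, n = 3 each), a log2 change of 0.29 that turned to -0.08 under ERCC scaling (adjusted p = 0.755) and was 0.03 under scaling to ribosomal protein genes (adjusted p = 0.778). OIP5-AS1, a lncRNA known as cyrano, averaged 74.6 ± 2.1 CPM with STM2457 and 78.6 ± 0.898 CPM with DMSO (SD, n = 3 each), and its log2 change of -0.07 ± 0.05 was not called (adjusted p = 0.205). TP73-AS1 was at 20.96, 22.15 and 19.4 CPM with STM2457, against 42.0, 41.0 and 41.0 CPM with DMSO, a fall of 0.99 on the log2 scale (adjusted p = 2.65e-10). In DMSO at 6 h the antisense genes ranged from 0.424 to 90.3 CPM with a median of 2.06, 76 were below 1 CPM, and the 8 most abundant held 24.7% of their reads.

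**Figure D3:**
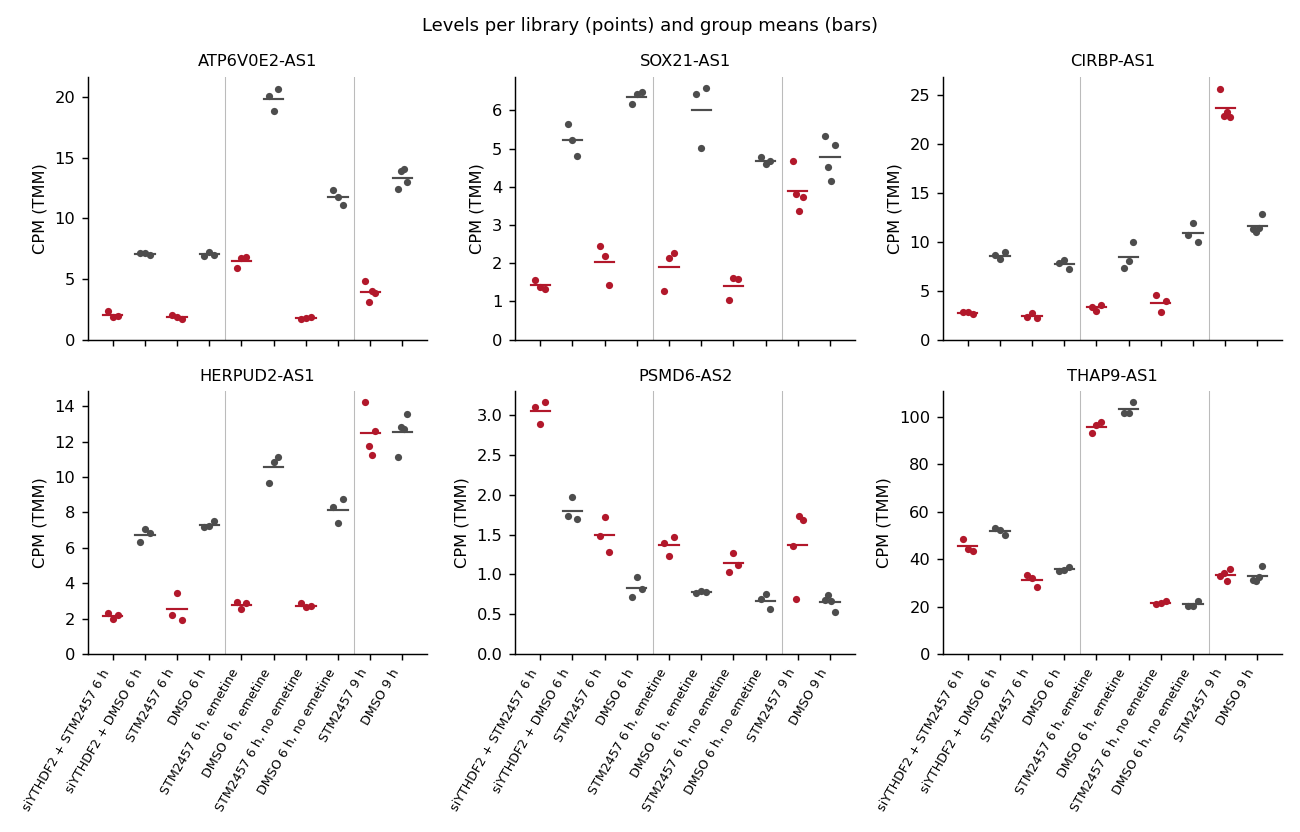
Levels of 6 antisense genes in CPM (y axis) in each library (points) with group means (bars), for the knockdown, emetine and 9 h experiments from left to right, with STM2457 groups in red and DMSO groups in grey. At 6 h the STM2457 libraries of ATP6V0E2-AS1, SOX21-AS1, CIRBP-AS1 and HERPUD2-AS1 lie below their DMSO libraries in each pair of groups, at 9 h CIRBP-AS1 is above them, and THAP9-AS1 is at 93.4 to 106.5 CPM in the libraries with emetine.

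By median, genes that fell had longer transcripts than the others. The longest transcript had a median of 2503 bases in the 129 lower genes, 1180 bases in the 34 higher genes and 1920 bases in those not called in the knockdown experiment, and in the emetine experiment 2506, 1932 and 1780 bases. Lower genes also had more reads than those not called (median 101 against 59.0 reads a library in the knockdown experiment), and longer transcripts collect more reads, so the part of depth in this difference was not tested. GGACT occurred at 1.08 per kb in the lower genes, 1.10 in the higher genes and 0.976 in those not called in the knockdown experiment, and in the emetine experiment, where the order differed, at 1.01, 0.88 and 1.07 per kb. By position, 105 of 265 genes with exon overlap were lower, 13 of 44 with body overlap and 8 of 20 head to head, with medians of -0.24, -0.16 and -0.06. Among 19 genes with at least 50% of their exon bases overlapped, 5 were lower and 2 higher, against 69 lower and 15 higher of 183 with under 10% overlap.

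The partners of the antisense genes that fell were called about as often in each direction as all partners. In 298 pairs tested in the knockdown experiment, the median log2 change was -0.27 for the antisense gene and 0.07 for the partner. Of the antisense genes that were lower, 43 had a partner that was higher (35.5%), 21 a partner that was lower (17.4%) and 57 a partner not called, while of all 298 partners 35.9% were higher and 20.5% lower. Of those that were higher, 13 had a higher partner and 5 a lower one. Across pairs, Spearman's rho was 0.04 and Pearson's r 0.07, and in the emetine experiment 0.02 and 0.04 over 299 pairs. They were larger for STM2457 at 9 h, at 0.16 and 0.19 over 293 pairs. For YTHDF2 siRNA in DMSO they were 0.14 and 0.14 over 298 pairs, and for emetine in DMSO 0.04 and 0.06. Pairs are genes of the same libraries and no independent replicates. Per kb of exon, partners were more abundant in 233 of 329 pairs in DMSO at 6 h, with a median of 0.980 CPM per kb for the antisense gene and 4.71 for the partner.

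**Figure D4:**
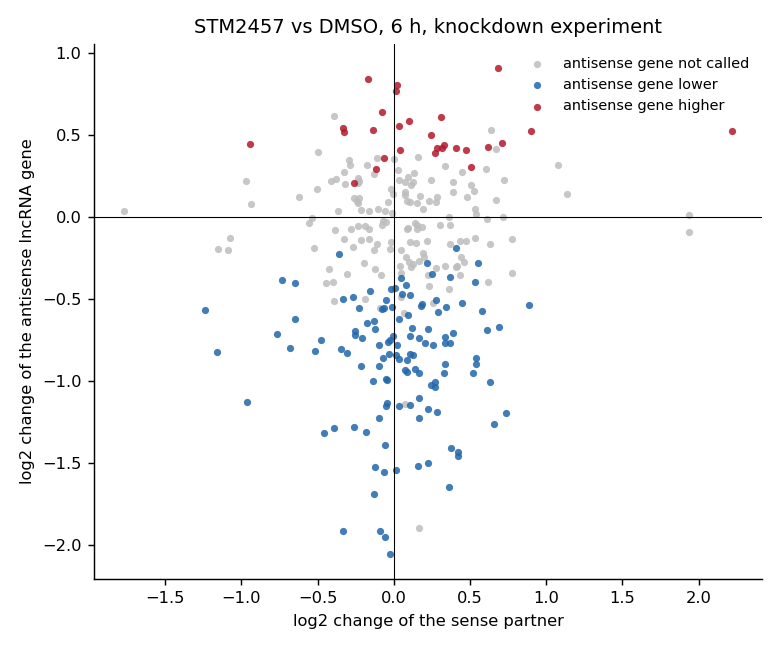
Log2 change with STM2457 at 6 h in the knockdown experiment for the sense partner (x axis) and the antisense lncRNA gene (y axis) in 298 pairs, coloured by the call of the antisense gene. Genes that were lower lie on both sides of no change in their partner, 43 with a higher and 21 with a lower partner, and the point farthest to the right is RBM15-AS1.

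The comparison at 9 h addresses the same inhibitor for a longer time. Here antisense genes rose about as often as they fell, and 90 were higher and 86 lower of 337 tested, where 32.2% of all genes tested were higher and 32.5% lower. The median log2 change was 0.00, as over all genes. Scaled to ribosomal protein genes, the median of all genes was 0.17, and 133 antisense genes were higher and 51 lower. Of all 15834 genes, 7514 were then higher and 2422 lower. Their share of gene reads was 0.223 ± 0.006% with STM2457 and 0.219 ± 0.003% with DMSO (SD, n = 4 each). Other lncRNAs had a median of 0.02, with 205 higher and 180 lower of 763.

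The difference between the effects at 9 h and at 6 h was tested in a fit of the 20 libraries concerned, a test added after the values had been seen. The effect at 9 h was more positive for 75 antisense genes and more negative for 9 than in the knockdown experiment, where 13.8% of all genes were more positive and 23.3% more negative. Against the emetine experiment the counts were 100 and 5, where 10.4% and 15.4% of all genes were called. Scaled to ribosomal protein genes, the median of all genes was 0.44 and 0.31 in these tests. Then 222 antisense genes were more positive and 1 more negative, or 177 and 1. Of all 16720 genes, 9999 were more positive and 97 more negative, or 6100 and 69. Time and experiment cannot be told apart here. Of the 129 genes lower at 6 h in the knockdown experiment, 71 were also lower at 9 h, which is 55.0% of these and 82.6% of the 86 lower at 9 h. The matching share over all genes was not worked out. Antisense genes called lower in all 5 comparisons of STM2457 with DMSO numbered 58 (17.2%, against 4.96% of all genes), among them ATP6V0E2-AS1, UFD1-AS1, SOX21-AS1, PRKAR2A-AS1 and TP73-AS1. Of the 84 that were lower in the 4 at 6 h, 22 were not called at 9 h. Among all genes, 1136 of 15583 were lower in the 4 at 6 h and 757 of 15252 in all 5.

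CIRBP-AS1 was at 25.7, 22.8, 23.3 and 22.8 CPM with STM2457 for 9 h, against 11.27, 10.97, 11.45 and 12.86 CPM with DMSO. Every STM2457 library was above every DMSO library, opposite to 6 h, and the log2 change was 1.02 ± 0.06 (adjusted p = 2.19e-13). The effect at 9 h exceeded that at 6 h by 2.67 ± 0.14 on the log2 scale in the knockdown experiment and by 2.55 ± 0.14 in the emetine experiment (adjusted p = 3.79e-14 and 1.49e-13). FOXD2-AS1, RHPN1-AS1 and ARHGAP5-AS1 were the other genes that were lower in the 4 comparisons at 6 h and higher at 9 h, with log2 changes at 9 h of 0.35, 0.61 and 0.67, and -0.86, -0.82 and -0.84 at 6 h in the knockdown experiment. They were chosen after their values were seen. HERPUD2-AS1 was at 14.2, 11.8, 11.3 and 12.6 CPM with STM2457 for 9 h, against 11.1, 12.9, 12.7 and 13.6 CPM with DMSO, so these groups overlapped (log2 change -0.02 ± 0.07, adjusted p = 0.810).

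Other antisense genes were lower at both times. ATP6V0E2-AS1 was at 4.80, 3.12, 4.03 and 3.83 CPM with STM2457, against 12.4, 13.9, 14.1 and 13.02 CPM with DMSO, and fell by 1.78 on the log2 scale. CCNT2-AS1, which shares its start region with the gene of cyclin T2, was at 2.36, 1.93, 2.23 and 2.24 CPM with STM2457, against 4.49, 6.19, 6.30 and 6.43 CPM with DMSO, and fell by 1.43 ± 0.13 (adjusted p = 3.25e-10). Its log2 change was -1.45 at 6 h in the knockdown experiment, and that of CCNT2 at 9 h was 0.07 (adjusted p = 0.145), called without DMSO replicate 4 (0.11, adjusted p = 0.0247) or without STM2457 replicate 1 (0.10, adjusted p = 0.0473). RAP2C-AS1, GLIPR1-AS1 and PAXIP1-AS2 fell by 1.89, 1.33 and 1.27 at 9 h, and GLIPR1-AS1 was not called at 6 h in the knockdown experiment (-0.20, adjusted p = 0.209).

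Antisense genes of the HOX clusters, whose coding genes make the transcription factors that set position along the body axis, were mostly higher at 9 h. Of 9 such genes, 6 were higher and 0 lower at 9 h with a median log2 change of 0.65, where 32.2% of all genes tested were higher. At 6 h, 2 of 9 were higher in the knockdown experiment (HOXA10-AS and HOXB-AS3) and 2 in the emetine experiment (HOXA10-AS and HOXC-AS2), near the 22.9% and 26.0% of all genes that were higher there, and none was lower. The rise of HOXB-AS3 at 6 h, 0.37 ± 0.11, was lost without DMSO replicate 2 (0.31, adjusted p = 0.0624), DMSO replicate 3 (0.31, adjusted p = 0.0628) or STM2457 replicate 3 (0.30, adjusted p = 0.0507), and was 0.00 under ERCC scaling (adjusted p = 0.991).

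HOXA11-AS was at 16.9, 13.7, 16.2 and 15.2 CPM with STM2457 for 9 h, against 6.45, 6.35, 5.88 and 5.90 CPM with DMSO, a log2 change of 1.32 ± 0.08 (adjusted p = 1.13e-13). At 6 h in the knockdown experiment its groups overlapped, with 8.03, 6.80 and 6.18 CPM for STM2457 and 4.93, 6.37 and 6.66 CPM for DMSO (0.22 ± 0.12, adjusted p = 0.149). The difference between 9 h and 6 h was 1.07 ± 0.15 (adjusted p = 2.75e-06). HOXC-AS2 rose by 1.56 ± 0.13 at 9 h and HOXA-AS3 by 1.21 ± 0.10, and HOXA10-AS by 1.09 ± 0.09. Sense genes moved in the same direction at 9 h for HOXA11, at 1.19, and HOXA10, at 0.93, and HOXA11 was already higher at 6 h in the knockdown experiment, at 0.73. HOXA-AS2 and HOXC-AS1 rose by 0.43 and 0.65, and HOXC13-AS was called in none of the 7 comparisons between groups.

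**Figure D5:**
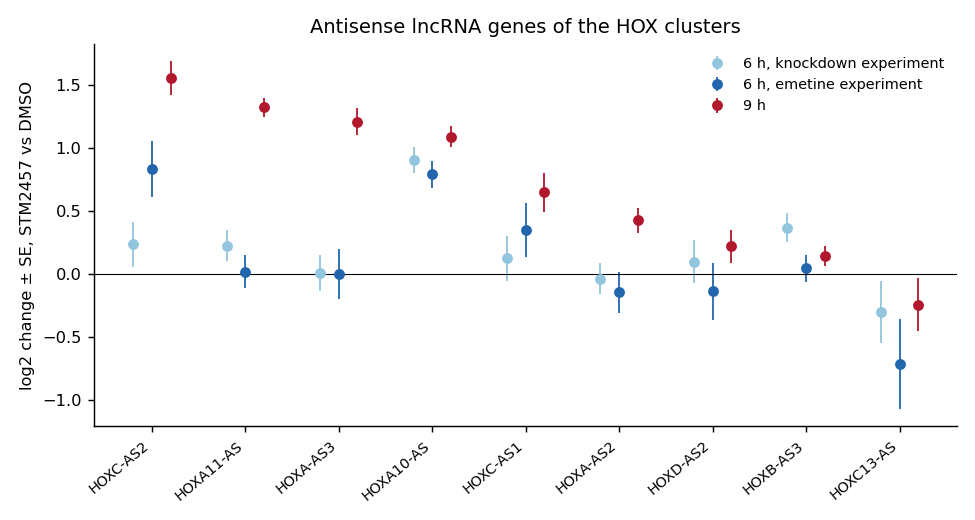
Log2 change with STM2457 against DMSO (y axis, points, with bars of 1 SE) for the 9 antisense lncRNA genes of the HOX clusters, ordered by their change at 9 h. At 9 h, 6 of the 9 were called higher, from HOXC-AS2 at 1.56 down to HOXA-AS2 at 0.43, and at 6 h HOXA10-AS was called in both experiments.

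RBM15-AS1 had the largest rise at 9 h among the named genes. It is antisense to RBM15, a subunit of the m6A writer complex, and was at 5.28, 5.68, 6.15 and 5.46 CPM with STM2457, against 1.51, 1.85, 1.43 and 2.22 CPM with DMSO. Its log2 change was 1.68 ± 0.12, beside 1.74 for RBM15. At 6 h the antisense gene rose by 0.53 ± 0.16 and RBM15 by 2.22 in the knockdown experiment. RBM15 overlaps 6.70% of the exon bases of RBM15-AS1. All 8 m6A writer genes of the list were higher at 6 h in the knockdown experiment under TMM scaling, where 22.9% of all genes were, among them RBM15, RBM15B at 1.24 and WTAP at 0.98. METTL3 rose by only 0.13 (adjusted p = 0.0197), and by 0.22 in the emetine experiment (adjusted p = 0.000105). It was not called at 9 h (0.03, adjusted p = 0.512) or within YTHDF2 siRNA (0.10, adjusted p = 0.109). The list was not counted under the other scalings. SLC26A4-AS1 and ZNF566-AS1 rose by 1.66 and 1.28 at 9 h.

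Knockdown of YTHDF2 addresses which RNAs depend on this reader. Antisense genes moved both ways, with 92 higher and 84 lower in DMSO, where 33.1% of all genes were higher and 29.3% lower (62.4% called). The median log2 change was -0.01, against 0.02 over all genes, and -0.10 in other lncRNAs. ERCC scaling gave 50 higher and 47 lower, where 2653 of all 16662 genes were higher and 2229 lower. EMC3-AS1, antisense to a gene of the complex that inserts membrane proteins, was at 29.5, 29.9 and 29.02 CPM with YTHDF2 siRNA, against 10.8, 11.7 and 10.3 CPM without it, a log2 change of 1.43 ± 0.07 (adjusted p = 1.20e-11). KIF9-AS1, antisense to a kinesin gene, was at 6.02, 6.82 and 6.20 CPM with siRNA and at 1.94, 2.21 and 2.01 CPM without it, a change of 1.63 ± 0.11. Both fell with STM2457 at 6 h, by 0.28 and 0.52 without siRNA and by 0.74 and 0.85 with it. The difference between these effects was called for EMC3-AS1 (-0.47 ± 0.11, adjusted p = 0.0101) and not for KIF9-AS1 (-0.33 ± 0.17, adjusted p = 0.299).

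SOCS2-AS1 rose by 1.49 with YTHDF2 siRNA together with SOCS2, a suppressor of cytokine signalling, which rose by 1.89. DHX9-AS1 and MAP3K14-AS1 rose by 1.30 and 1.26. KLRK1-AS1 fell most among the named genes, to 0.801, 0.756 and 0.758 CPM with siRNA, against 3.21, 3.29 and 3.88 CPM without it, a log2 change of -2.16 ± 0.14 (adjusted p = 2.06e-10). FBXL19-AS1 fell by 1.41 while FBXL19 rose by 0.79. PHKA2-AS1, MCM3AP-AS1 and CCDC28A-AS1 fell by 1.44, 1.37 and 1.12, and CCDC28A by 1.12. OIP5-AS1 was at 45.2, 46.3 and 42.6 CPM with siRNA, against 77.6, 78.8 and 79.3 CPM without it, a fall of 0.81 on the log2 scale.

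Within YTHDF2 siRNA, most antisense genes called with STM2457 at 6 h were lower. Of 338, 135 were lower and 16 higher, where 15.4% of all genes were lower and 15.5% higher (30.9% called), and the median log2 change was -0.26. SOX21-AS1 was at 1.56, 1.38 and 1.33 CPM with STM2457 and siRNA, against 5.63, 5.22 and 4.81 CPM with DMSO and siRNA, a log2 change of -1.87 ± 0.15. ATP6V0E2-AS1, HERPUD2-AS1, ZBTB11-AS1 and PAXIP1-AS2 fell by 1.78, 1.63, 1.65 and 1.89. Scaling to ERCC spike-ins gave 139 lower and 0 higher, with the median of all genes at -0.31. Of all 16662 genes, 2381 were then lower and 138 higher. Scaling to ribosomal protein genes gave 163 lower and 3 higher, with that median at -0.19. Of all genes, 4241 were then lower and 704 higher. The comparisons with and without siRNA share no library.

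The difference between the STM2457 effects with and without siRNA was called for 20 antisense genes, 2 more positive and 18 more negative, where 1.78% and 6.93% of all genes were called (8.70% in all). A1BG-AS1 was at 7.81, 7.35 and 7.29 CPM with STM2457 and siRNA, against 11.75, 12.02 and 12.65 CPM with DMSO and siRNA. Without siRNA it was at 8.75, 10.2 and 9.77 CPM with STM2457 and at 8.12, 9.24 and 9.20 CPM with DMSO, where the groups overlapped and the change was not called (0.11, adjusted p = 0.265). The difference was -0.81 ± 0.11 (adjusted p = 0.000122). RAB33B-AS1, which holds a snoRNA gene of the family RF01225, had a difference of -1.15 ± 0.28 that lost its call without siYTHDF2 STM2457 replicate 3 (-1.06, adjusted p = 0.0556). Scaled to ribosomal protein genes 1 antisense gene was called, where 9 of all 16662 genes were more positive and 122 more negative. Scaled to ERCC spike-ins edgeR called 0 antisense genes, with 14 at an unadjusted p below 0.05, and 0 of all genes in either direction. ERCC spike-ins took 0.415%, 0.328% and 0.463% of all counts in the STM2457 libraries without siRNA. With siRNA they took 0.472%, 0.365% and 0.327%. This scale thus varied between libraries of the same group, and its part in the lost calls was not tested. DESeq2, with its own size factors, called 21, where 444 of all genes were more positive and 1201 more negative.

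Emetine for 2 h addresses how RNA levels change when translation is blocked. Of the 338 antisense genes, 93 (27.5%) were higher and 19 (5.62%) lower in DMSO, where 33.9% of all genes tested were higher and 28.3% lower (62.2% called). Both shares were below those of all genes, that of falls by more. The median was 0.10, against 0.04 over all genes, and 0.11 in other lncRNAs. These counts depend on the scaling. With ribosomal protein genes or ERCC spike-ins as the scale, the median of all genes was 0.47 or 0.52. Then 219 antisense genes were higher and 1 lower, or 230 higher and 0 lower. Of all 15817 genes, 11455 were higher and 408 lower, or 11558 higher and 227 lower, so most of all genes rose too. A rise of at least 1 on the log2 scale was called for 12 antisense genes (3.55%), against 6.18% of all genes, and a fall of that size for 0, against 0.790%.

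THAP9-AS1, antisense to a gene derived from a DNA transposase, was at 101.8, 101.6 and 106.5 CPM with emetine, against 20.1, 20.4 and 22.3 CPM without it, with every emetine library far above the others. Its log2 change was 2.30 ± 0.05 (adjusted p = 1.38e-28), and THAP9 rose by 1.58. Exons of SEC31A on the same strand overlap it in GENCODE 29. EPB41L4A-AS1, the host gene of the small nucleolar RNA SNORA13, was at 36.5, 37.2 and 36.2 CPM with emetine, against 14.5, 16.1 and 14.7 CPM without it, a log2 change of 1.28 ± 0.06. EPB41L4A had a log2 change of 0.17 (adjusted p = 0.182). MATN1-AS1, SLC25A21-AS1 and PTOV1-AS2 rose by 1.84, 1.65 and 1.30.

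Transcripts known to be degraded by nonsense-mediated decay, a list of 18 genes that includes snoRNA hosts, moved further, with 15 higher and 2 lower and a median of 0.61, and SNHG15 at 1.80, SNHG17 at 1.78 and ATF3 at 2.17. Of 16 genes for factors of that pathway, 10 were higher and 3 lower, where 33.9% and 28.3% of all genes were. Of 18 genes of the nuclear exosome and its adaptors, 7 were higher (38.9%) and 5 lower (27.8%), near the shares of all genes, with ZCCHC8 at 0.99. The 8 most abundant antisense genes included OIP5-AS1, which was at 56.1, 61.3 and 58.4 CPM with emetine, against 83.8, 86.3 and 85.3 CPM without it. Its fall of 0.54 on the log2 scale lost its call under ERCC scaling (-0.05, adjusted p = 0.558) and under scaling to ribosomal protein genes (-0.10, adjusted p = 0.0523). PINK1-AS, antisense to the gene of a mitochondrial kinase, fell by 0.60, also without a call under ERCC scaling (-0.12, adjusted p = 0.279). HOXD-AS2 fell by 0.75 and lost its call under both scalings (-0.32 and -0.27, adjusted p = 0.231 and 0.324). MIF-AS1 fell by 0.72, and lost its call in DESeq2 (adjusted p = 0.276), under both scalings (-0.28 and -0.24, adjusted p = 0.408 and 0.0843), and without DMSO replicate 3 (-0.42, adjusted p = 0.194) or emetine replicate 3 (-0.51, adjusted p = 0.138).

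In the presence of emetine, too, most antisense genes called with STM2457 at 6 h were lower. Of 338, 138 were lower and 8 higher, where 16.2% of all genes tested were lower and 21.6% higher (37.8% called), and the median log2 change was -0.33. Scaling to ribosomal protein genes or ERCC spike-ins gave 165 lower and 3 higher, or 148 lower and 3 higher. Of all 15817 genes, 4364 were then lower and 1657 higher, or 2581 lower and 1351 higher. UFD1-AS1 was at 0.439, 0.474 and 0.492 CPM with STM2457 and emetine, against 2.47, 2.47 and 2.71 CPM with DMSO and emetine, and fell by 2.44 ± 0.26. HERPUD2-AS1, PAXBP1-AS1 and ASH1L-AS1 fell by 1.92, 1.96 and 1.89. Antisense genes held 0.168 ± 0.002% of gene reads with STM2457 and emetine and 0.228 ± 0.001% with DMSO and emetine (SD, n = 3 each).

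The difference between the STM2457 effects with and without emetine was called for 22 antisense genes, 5 more positive and 17 more negative, where 6.71% and 11.1% of all genes were called. ATP6V0E2-AS1 was at 5.87, 6.72 and 6.79 CPM with STM2457 and emetine, against 20.1, 18.8 and 20.7 CPM with DMSO and emetine. Its fall with emetine, 1.62 on the log2 scale, was smaller than without by 1.09 ± 0.15 (adjusted p = 2.71e-06). TP73-AS1 differed in the same direction, by 0.61 ± 0.07 (adjusted p = 2.95e-08), and also between the conditions with and without YTHDF2 siRNA, by 0.34 ± 0.09 (adjusted p = 0.0173), the second without a call when siYTHDF2 DMSO replicate 1 was left out (0.31, adjusted p = 0.0524). DESeq2 called 11 antisense genes here, 4 more positive and 7 more negative, where 1131 and 1504 of all 15817 genes were called. Scaling to ribosomal protein genes gave 6 and 6, where 1338 and 933 of all genes were called. Scaling to ERCC spike-ins gave 5 and 2, against 227 and 478 of all genes.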

How the data were processed

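Gene counts were deposited by the authors as whole numbers per library, with no normalization. Per the submitters' processing notes, tools included cutadapt 1.18 and 4.0, Trimmomatic, STAR 2.7.3a, SAMtools 1.9 and featureCounts of Subread 2.0.0 on GRCh38.p12. Which annotation was counted against, and whether by strand, is not stated in the labels or files. Here, each of the 3 experiments was fitted apart with the edgeR 4.0.16 quasi-likelihood F test in R 4.3.3 (TMM scaling, filterByExpr by group, Benjamini-Hochberg adjustment over all genes tested, threshold 0.05). The test was run on simulated counts in which few genes changed, as many up as down. That run does not cover a setting in which many genes change, as here, and cannot show that the scaling holds. Time points were compared in 1 added fit of 20 libraries. Alternatives were DESeq2 1.42.0, RLE factors, no low-count filter, ribosomal protein or ERCC scaling, a replicate block and leaving out each library. ERCC scaling was used for the knockdown and emetine experiments only. The ERCC share of all counts ran from 0.328% to 0.463% in the STM2457 6 h libraries of the knockdown experiment. In the STM2457 libraries without emetine of the emetine experiment it ran from 0.575% to 0.585%. Whether this spread led to calls lost under ERCC scaling was not tested. The genes named are the 5 largest called changes each way per comparison without overlap between groups (4 for differences), with mean log2 CPM of at least 0 in that experiment, the 8 most abundant, HOX genes and snoRNA hosts. The genes, lists and tests were chosen with earlier results of these data known. Positions come from GENCODE 29 and promoters from RefSeq on GRCh38.p14.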

Additional observations from a re-analysis of the deposited data

Results flagged for a closer look

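The STM2457 effect with YTHDF2 siRNA minus that without it was 0.34 for TP73-AS1 and 0.34 for TMEM147-AS1, and -1.15 for RAB33B-AS1, -0.92 for URB1-AS1, -0.87 for ASH1L-AS1 and -0.81 for A1BG-AS1 on the log2 scale, each called by the test of the difference. The call of TMEM147-AS1 was lost without DMSO replicate 2 or siYTHDF2 DMSO replicate 3 (adjusted p = 0.0561 and 0.0536). That of TP73-AS1 was lost without siYTHDF2 DMSO replicate 1 (adjusted p = 0.0524). RAB33B-AS1 lost its call without siYTHDF2 STM2457 replicate 3 (adjusted p = 0.0556). Of all antisense genes, 1 was called under scaling to ribosomal protein genes and 0 under ERCC scaling.

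The effect with emetine minus that without it was 1.09 for ATP6V0E2-AS1, 0.97 for ZNF337-AS1, 0.90 for BAALC-AS1 and 0.61 for TP73-AS1, and -1.19 for PKD1-AS1, -1.17 for HOXC-AS2, -0.92 for RALY-AS1 and -0.89 for ASH1L-AS1. Calls lost when 1 library was left out were those of PKD1-AS1 (without DMSO replicate 2 or DMSO emetine replicate 2, adjusted p = 0.0577 and 0.0707), RALY-AS1 (any of 6 libraries, up to 0.111) and ASH1L-AS1 (any of 3 libraries, up to 0.0928).

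The effect at 9 h minus that at 6 h in the knockdown experiment was 2.67 for CIRBP-AS1, 1.48 for HERPUD2-AS1, 1.47 for ARHGAP5-AS1 and 1.43 for RUSC1-AS1, and -1.17 for GLIPR1-AS1, -0.85 for KCNMB2-AS1, -0.73 for ZNF687-AS1 and -0.56 for EFCAB10-AS1. Against the emetine experiment it was 2.55 for CIRBP-AS1, 1.84 for RUSC1-AS1, 1.80 for HMGN3-AS1 and 1.60 for SLC26A4-AS1, and -1.15 for GLIPR1-AS1, -0.62 for EFCAB10-AS1, -0.40 for EPB41L4A-AS1 and -0.36 for BACE1-AS. RUSC1-AS1 lost its calls without DMSO replicate 3 of the knockdown experiment (0.86, adjusted p = 0.122) and DMSO replicate 3 of the emetine experiment (1.42, adjusted p = 0.0622), and KCNMB2-AS1 and BACE1-AS lost theirs without any of 5 and of 6 libraries.

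At 9 h, where groups held 4 libraries, 1 library lay far from the other 3 in 9 of 148 groups looked at, and chance flags about 1 in 20. With STM2457 these were BAALC-AS1 at 2.71 CPM, CIRBP-AS1 at 25.65 CPM, COA6-AS1 at 2.30 CPM and ZBTB11-AS1 at 5.85 CPM. With DMSO they were CCDC28A-AS1 at 5.62 CPM, CCNT2-AS1 at 4.49 CPM, GLIPR1-AS1 at 4.96 CPM, HOXA-AS2 at 3.63 CPM and PAXIP1-AS2 at 1.03 CPM.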

How the results depend on the processing

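Scaling moved the counts of antisense genes called most. With ERCC spike-ins there were 97 for YTHDF2 siRNA, 230 for emetine, 0 for the difference by siRNA and 7 for the difference by emetine. With ribosomal protein genes there were 220 for emetine, 1 and 12 for those differences, and 223 and 178 for 9 h minus 6 h in the knockdown and emetine experiments. DESeq2 called 11 for the difference by emetine. Calls among all genes moved with these settings too, and are given with each comparison above. Log2 changes that turned sign under ERCC scaling were those of FGD5-AS1 (-0.0787), HOXB-AS3 (-0.0035) and SOX21 (-0.0052) at 6 h in the knockdown experiment, and with emetine LYRM4-AS1 (0.0327), FGD5-AS1 (0.0496), VPS9D1-AS1 (0.35), ENTPD1-AS1 (0.46) and HOXB-AS3 (0.41). Under scaling to ribosomal protein genes they were HERPUD2 at 6 h (-0.25), VPS9D1-AS1 (0.0414) and TMEM147-AS1 (0.034) at 9 h, and FGD5-AS1 (0.0011), VPS9D1-AS1 (0.30), ENTPD1-AS1 (0.41) and HOXB-AS3 (0.36) with emetine. The cause was not tested.

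Leaving out 1 library gave 141 to 162 antisense genes called for STM2457 at 6 h in the knockdown experiment. It gave 136 to 150 at 6 h in the emetine experiment, 129 to 159 within siRNA, 132 to 152 within emetine and 160 to 168 at 9 h. It gave 151 to 179 for siRNA, 86 to 111 for emetine, 15 to 29 and 15 to 23 for the differences by siRNA and emetine, and 73 to 92 and 85 to 112 for those by time. The labels do not say that replicate numbers pair the libraries, and the main fits did not pair them. Correlations of same-numbered libraries ran from -0.35 to 0.583. Libraries with different numbers were not correlated, so this range cannot decide whether the numbers pair. A replicate block gave 166 calls in place of 163 at 6 h in the knockdown experiment and ended 2 calls among 250 results, those of CIRBP at 6 h (adjusted p = 0.0524) and HOXC-AS1 within siRNA (adjusted p = 0.0518). Depth limits the 76 antisense genes below 1 CPM in DMSO at 6 h.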
